A study of Mus musculus with 23 samples.

Results

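A set of 10 genes of CD8+ T cells and other cytotoxic lymphocytes was followed in PyMT mammary tumors, among 47643 genes in the deposited tables. They are Cd8a and Cd8b1, the granule genes Gzma, Gzmb, Prf1 and Nkg7, the receptors Klrk1 and Ncr1, the transcription factor gene Eomes, and Ifng. They were chosen by name, and all 10 were found through their Ensembl identifiers. Each gave few reads, so the read counts are printed beside the levels. No gene of the 10 passed an adjusted p of 0.05 in any of 4 comparisons.

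CD8+ T cells recognize peptides on MHC class I of a target cell with the T-cell receptor and the CD8 co-receptor, while NK cells are triggered by activating receptors such as NKG2D. Both kill by releasing granules that hold perforin, which opens the target membrane, and granzymes, proteases that start cell death inside the target. T-box and Runx transcription factors drive this program, and IFN-γ, which the same cells secrete, raises antigen presentation and the chemokines that bring in further T cells.

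In the PyMT model, the polyoma middle T oncogene drives mammary carcinomas. Only female mice, on a C57BL/6 background, were used, and RNA came from dissociated whole tumors at the end of 5 weeks of weekly injections. In the neutralization experiment, PyMT WT mice received 100 µg of human IgG1 isotype control (IgG, n = 5) or of the antibody e04 against IL-38 (anti-IL-38, n = 6), starting at a tumor diameter of 0.6 cm. In the γδ TCR experiment, treatment started at 13 weeks of age, with 500 µg first and 200 µg thereafter. There, PyMT WT mice received isotype IgG (WT_IgG, n = 4), and PyMT IL-38 KO mice received isotype IgG (KO_IgG, n = 4) or an antibody that blocks the γδ TCR (KO_γδTCR, n = 4). Both KO groups carry the knockout. Whole tumor RNA does not separate fewer cells of a type from less RNA per cell.

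The 23 libraries of 3′ mRNA reads held 6273049 to 15879164 reads on genes, and 0 reads in a library allow up to 0.189 to 0.478 CPM by counting error alone (3 reads of that total). CPM stands for the reads of a gene per 1000000 reads on all genes of its library, on 1 scale for all libraries. Il1f10, which encodes IL-38, had reads in 0 of 23 libraries and does not check the genotype labels. The 4 KO_γδTCR libraries and KO_IgG replicate 4 stood apart from the other 18. They had 1.31% to 1.98% of reads on processed pseudogenes, against 0.0943% to 0.191%. They were also the shallowest, with 6273049 to 8794202 reads against at least 10138353. Of their reads, 11.3% to 20.1% fell on the gene Gm42418, against 2.62% to 5.70%. Low counts in KO_γδTCR therefore come with low depth. Comparisons that hold KO_IgG replicate 4 are given with and without it. IgG replicate 5 had the fewest CD3 reads, 5 against 16 to 96 in the other libraries. Its level of Ptprc, the common leukocyte gene, was 268 CPM, within the 216 to 333 CPM of its group.

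Of the 230 values of the 10 genes in the 23 libraries, 48 were 0 reads and 123 were under 10 reads. The most reads that any gene of the 10 reached in a library were 65. A 3′ read counts a transcript about once whatever its length, so the CPM of different genes were set side by side. Averaged over all libraries, Nkg7 was highest at 2.53 CPM, followed by Gzma at 2.08, Klrk1 at 1.71, Cd8a at 1.50 and Gzmb at 1.23. Cd8b1 reached 0.978 CPM, Eomes 0.653, Ncr1 0.218, Prf1 0.0615 and Ifng 0.0601. For scale, Cd3d, a T-cell receptor subunit gene, averaged 2.28 CPM, and Ptprc averaged 214 CPM.

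**Figure D1:**
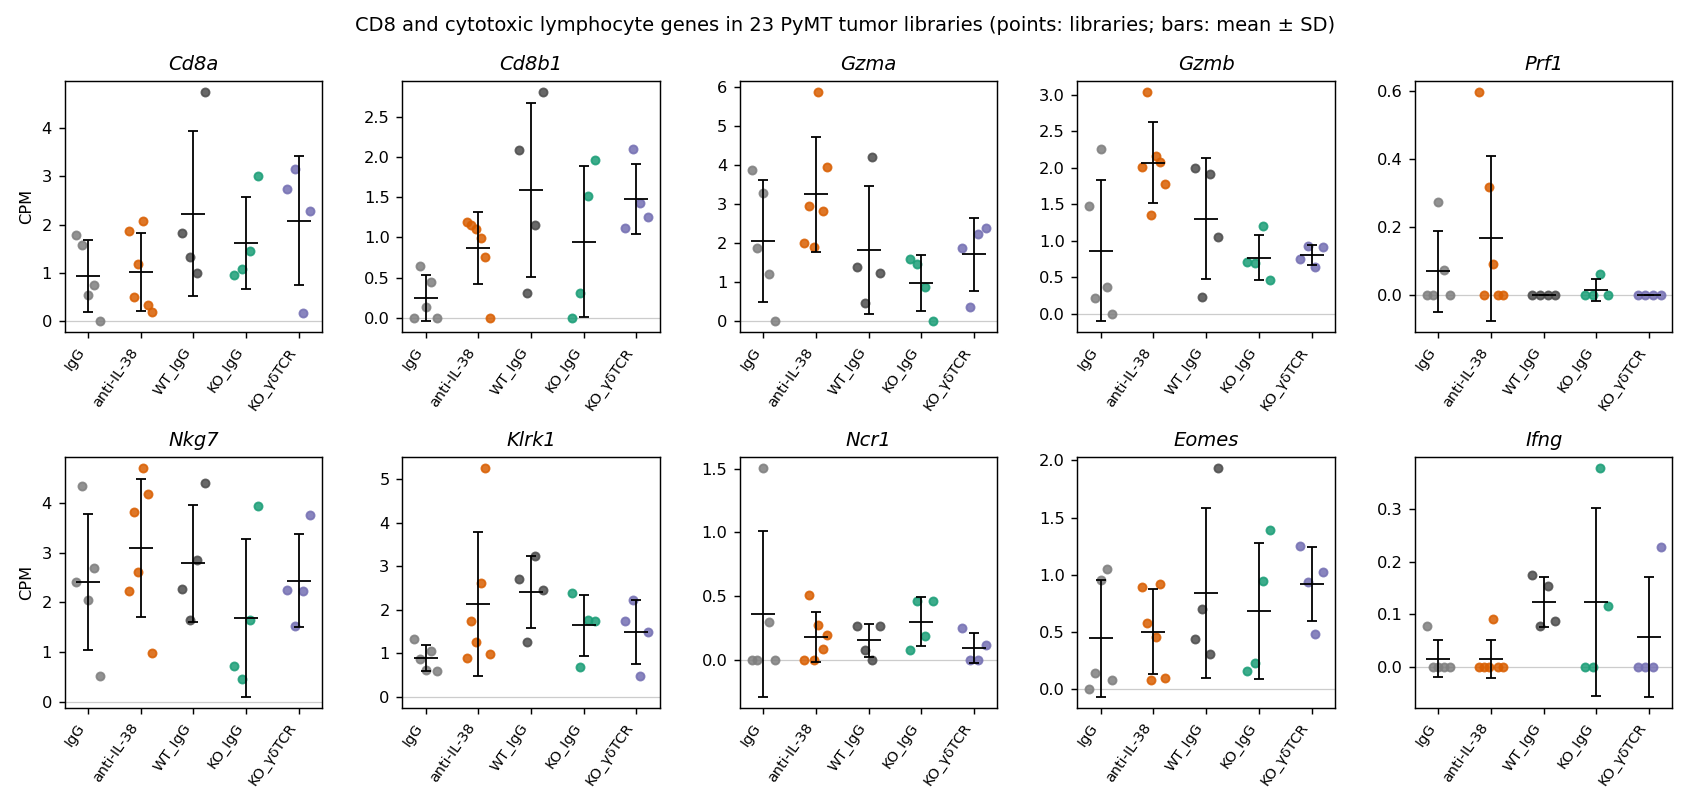
CPM of the 10 genes (y axis, a scale of its own per gene) in each library of the 5 groups (x axis); points are libraries, and bars are mean ± SD. Libraries within a group spread widely, as for Cd8a in WT_IgG from 0.998 to 4.74 CPM, and IgG replicate 5 lies at 0 for Cd8a, Cd8b1, Gzma and Gzmb.

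Cd8a encodes the α chain of CD8, which occurs on CD8+ T cells and also on some dendritic cells, and Cd8b1 encodes the β chain, which is more restricted to T cells. In the IgG libraries, Cd8a was at 1.79, 1.59, 0.546, 0.747 and 0 CPM, and with anti-IL-38 it lay between 0.197 and 2.08 CPM with a median of 0.847. Cd8a was at 1.83, 1.33, 0.998 and 4.74 CPM in WT_IgG, at 0.951, 1.08, 1.45 and 3.02 CPM in KO_IgG, and at 2.75, 3.15, 0.159 and 2.27 CPM in KO_γδTCR. The order of the means ran from WT_IgG over KO_γδTCR, KO_IgG and anti-IL-38 to IgG, and no neighbours in it differed by more than the larger SD of the pair. WT_IgG replicate 4 was the highest library of all 23 for Cd8a, at 54 reads.

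Cd8b1 followed the same order of groups. It was at 0, 0.650, 0.137, 0.448 and 0 CPM in IgG, while anti-IL-38 libraries ranged from 0 to 1.19 CPM with a median of 1.05. In WT_IgG it was at 2.09, 0.312, 1.15 and 2.81 CPM, in KO_IgG at 0, 0.309, 1.51 and 1.97 CPM, and in KO_γδTCR at 1.12, 2.10, 1.43 and 1.25 CPM. The step between anti-IL-38 and IgG (0.867 ± 0.454 against 0.247 ± 0.290 CPM, SD, n = 6 and 5) was the only one between neighbours that exceeded the larger SD, and 17 reads in all stand behind the IgG value. All 4 KO_γδTCR libraries had 9 to 18 reads.

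Gzma and Gzmb encode granzyme A, a tryptase, and granzyme B, which cleaves after aspartate and activates caspases. Gzma was at 3.88, 1.88, 3.28, 1.20 and 0 CPM in IgG and between 1.90 and 5.87 CPM (median 2.90) with anti-IL-38. It was at 1.39, 0.468, 4.22 and 1.23 CPM in WT_IgG, at 1.58, 1.47, 0.882 and 0 CPM in KO_IgG, and at 1.87, 0.350, 2.23 and 2.39 CPM in KO_γδTCR. No neighbours in the order of means differed beyond their spread. Between the ends of that order, all anti-IL-38 libraries were above all KO_IgG libraries, which come from different experiments.

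Gzmb was at 1.48, 0.217, 2.25, 0.374 and 0 CPM in IgG, and it lay between 1.35 and 3.03 CPM (median 2.05) with anti-IL-38. The anti-IL-38 libraries lay close together, whereas IgG libraries fell into a pair near the treated level and 3 libraries under 0.4 CPM. In WT_IgG it was at 2.001, 0.234, 1.92 and 1.05 CPM, in KO_IgG at 0.713, 0.694, 1.20 and 0.464 CPM, and in KO_γδTCR at 0.749, 0.934, 0.638 and 0.910 CPM. KO_γδTCR had the smallest spread for this gene (SD 0.140 CPM, 26 reads in all). Granzyme genes form a family of similar neighbours, and how the counting treated reads that match several of them is not given, so values of Gzma and Gzmb may be split with relatives.

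Prf1 encodes perforin and was close to the limit of detection. It had 0, 0, 4, 1 and 0 reads in IgG and 0 to 8 reads with anti-IL-38, where 3 of 6 libraries had any. All WT_IgG and KO_γδTCR libraries were at 0, and KO_IgG had 1 read, in replicate 3. Nkg7, a granule membrane protein gene of cytotoxic lymphocytes, was the best measured, with 6 to 60 reads in every library. It was at 2.41, 4.33, 2.05, 2.69 and 0.521 CPM in IgG and between 0.986 and 4.70 CPM (median 3.22) with anti-IL-38. Nkg7 was at 2.26, 1.64, 2.84 and 4.39 CPM in WT_IgG, at 0.713, 0.463, 1.64 and 3.94 CPM in KO_IgG, and at 2.25, 1.52, 2.23 and 3.75 CPM in KO_γδTCR. The groups overlapped, and KO_IgG held both the lowest library and, in replicate 4, one near the top.

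Gzma and Gzmb had the highest correlation of any pair of the 10 genes over the 23 libraries, and Nkg7 was the most abundant gene. Their promoters from RefSeq (GRCm38.p6, 250 bases before to 50 after the start, printed on the strand of the gene) are shown for the Runx motif TGTGGT and the T-box motif AGGTGT, which capitals mark in either orientation. Gzmb lies on the minus strand at chr14:56262285-56262584, Gzma on the minus strand at chr13:113100932-113101231, and Nkg7 on the plus strand at chr7:43436888-43437187.
Gzmb: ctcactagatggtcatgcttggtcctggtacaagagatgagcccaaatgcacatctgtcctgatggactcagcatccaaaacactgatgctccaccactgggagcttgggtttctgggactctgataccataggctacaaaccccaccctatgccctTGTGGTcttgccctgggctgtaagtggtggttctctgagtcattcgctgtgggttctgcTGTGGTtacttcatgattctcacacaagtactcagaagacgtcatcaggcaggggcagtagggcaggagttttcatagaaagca
Gzma: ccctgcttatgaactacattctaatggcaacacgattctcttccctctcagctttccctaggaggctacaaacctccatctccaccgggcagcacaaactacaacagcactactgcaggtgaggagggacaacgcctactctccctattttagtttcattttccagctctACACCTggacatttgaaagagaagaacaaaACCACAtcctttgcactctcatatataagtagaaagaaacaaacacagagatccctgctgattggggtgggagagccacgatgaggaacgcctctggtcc
Nkg7: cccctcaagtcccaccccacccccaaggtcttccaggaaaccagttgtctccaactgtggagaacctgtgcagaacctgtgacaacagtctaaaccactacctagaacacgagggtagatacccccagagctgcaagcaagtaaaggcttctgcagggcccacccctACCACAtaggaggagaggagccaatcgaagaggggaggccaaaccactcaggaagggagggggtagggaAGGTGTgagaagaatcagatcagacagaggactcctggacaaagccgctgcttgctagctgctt
Gzmb held 2 Runx matches, which began 93 and 34 bases before the start, and no T-box match. Gzma held a Runx match 50 bases before the start and a T-box match at 80 bases, and Nkg7 held them at 83 and 14 bases. Of the 10 genes, 9 had an entry, with 10 promoters since Ncr1 has 2. A Runx match stood in 7 of these 10 promoters, from Klrk1, Ncr1, Nkg7, Prf1, Gzma and Gzmb, against 16.8% of the 32851 promoters in the table. A T-box match stood in 3, against 13.7%, the Stat motif TTCNNNGAA in 3, against 8.30%, and the Ets motif CCGGAA in 0, against 14.9%. These are matches of letters within the window on either strand, the motifs did not overlap each other in the printed promoters, and binding was not measured. Cd8b1 had no entry.

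Klrk1 encodes NKG2D, an activating receptor of NK cells and CD8+ T cells. It was at 1.32, 0.866, 0.615, 1.05 and 0.596 CPM in IgG, and anti-IL-38 libraries ranged from 0.894 to 5.25 CPM with a median of 1.50. In WT_IgG it was at 2.70, 1.25, 3.23 and 2.46 CPM, in KO_IgG at 2.38, 0.694, 1.76 and 1.74 CPM, and in KO_γδTCR at 1.75, 2.22, 0.478 and 1.48 CPM. The IgG libraries were low and close together, and anti-IL-38 replicate 5, with 63 reads, was the highest of all 23. Ncr1, which encodes the NK receptor NKp46, had 0, 0, 22, 4 and 0 reads in IgG and 0 to 7 reads in every other library. IgG replicate 3 was the only library with more than 7 reads of Ncr1, so the IgG mean of 0.360 ± 0.652 CPM (SD, n = 5) rests on it.

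Eomes encodes a T-box factor of effector and memory CD8+ T cells and NK cells. It was at 0, 0.144, 0.956, 1.05 and 0.0744 CPM in IgG and between 0.0792 and 0.917 CPM (median 0.514) with anti-IL-38. In WT_IgG it was at 0.435, 0.702, 0.307 and 1.93 CPM, in KO_IgG at 0.158, 0.231, 0.945 and 1.39 CPM, and in KO_γδTCR at 1.25, 0.934, 0.478 and 1.02 CPM. KO_γδTCR had the highest mean (0.921 ± 0.324 CPM, SD, n = 4), within the spread of WT_IgG. Ifng had 0 reads in 14 of 23 libraries and at most 6, in KO_IgG replicate 3. It was detected in all 4 WT_IgG libraries (2, 1, 2 and 1 reads), in 2 of 4 KO_IgG libraries, and in 1 library each of the other groups. At such counts, differences in Prf1, Ncr1 and Ifng were not detectable at this depth.

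Each tumor was also compared with its own T-cell transcripts, the summed reads of Cd3d, Cd3e and Cd3g, which encode the CD3 chains. The 10 genes together gave 1.19 CPM in IgG replicate 5, the lowest of all libraries, and 5.40 to 19.3 CPM in the others. The highest were anti-IL-38 replicate 4 (19.3 CPM) and WT_IgG replicate 4 (18.97 CPM). The group means were 8.27 ± 4.20 CPM in IgG (SD, n = 5), 13.3 ± 4.19 with anti-IL-38 (n = 6), 13.3 ± 5.37 in WT_IgG, 8.77 ± 3.49 in KO_IgG and 11.1 ± 2.45 in KO_γδTCR (n = 4 each). Over the 23 libraries, the sum of the 10 genes and that of the CD3 genes had a Pearson's r of 0.81 on log2(CPM + 1), 0.82 after removing group means, and a Spearman's rho of 0.67. Without IgG replicate 5, r was 0.65 over 22 libraries. Both sums share the total of their library, and this is a description without a test.

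**Figure D2:**
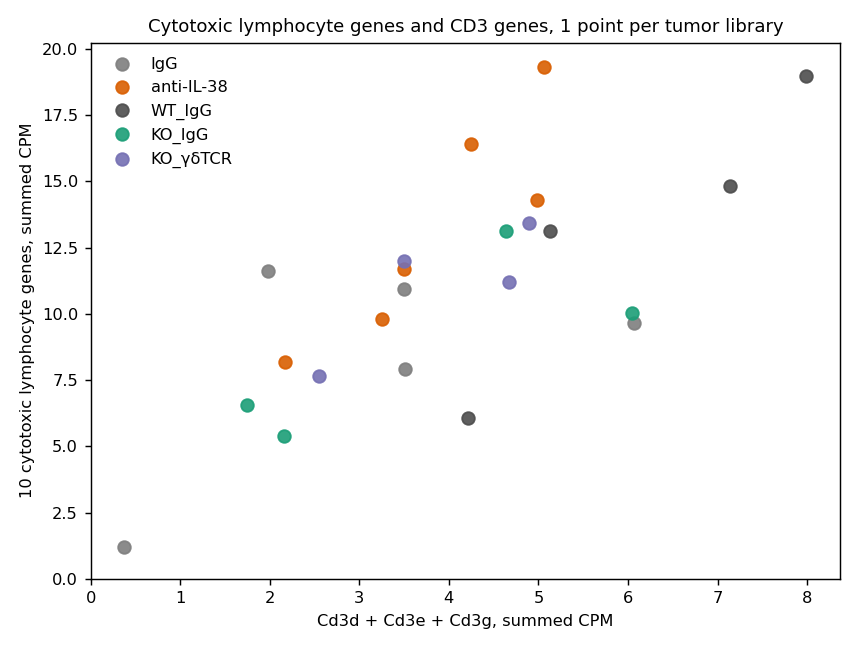
Summed CPM of the 10 cytotoxic lymphocyte genes (y axis) against summed CPM of Cd3d, Cd3e and Cd3g (x axis), 1 point per library, colored by group. IgG replicate 5 lies nearest the origin (0.372 and 1.19 CPM), IgG replicate 3 is high in the 10 genes for its CD3 level (11.6 and 1.98 CPM), and anti-IL-38 replicates 4 and 5 lie above libraries of like CD3 level.

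In IgG there were 1.60 to 5.86 reads of the 10 genes for each CD3 read (median 3.13), with anti-IL-38 2.87 to 3.86 (3.56), in WT_IgG 1.44 to 2.56 (2.22), in KO_IgG 1.66 to 3.77 (2.66), and in KO_γδTCR 2.40 to 3.43 (2.87). Within each experiment the ranges overlapped, while all anti-IL-38 libraries were above all WT_IgG libraries of the other experiment. For Gzmb the median was 0.106 per CD3 read in IgG and 0.532 with anti-IL-38, and the ranges were 0 to 1.14 and 0.415 to 0.818. For Cd8a it was 0.262 in IgG and 0.234 with anti-IL-38, and for Cd8b1 0.0690 and 0.214. The ranges of both groups overlapped for all 3 genes.

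The first comparison asked whether antibody neutralization of IL-38 altered these genes. With a mean normalized count (reads divided by the size factor of the library) of at least 5, 7 of the 10 genes could be tested with limma on log2(normalized count + 1), and Prf1, Ncr1 and Ifng fell under that minimum. All 7 were higher with anti-IL-38 than with IgG, as were 50.2% of all genes, with a median log2 fold change of 1.02 (range 0.40 to 2.06). None passed an adjusted p of 0.05, as was true of 0.0% of the 16002 genes tested. Gzmb and Klrk1 had an unadjusted p under 0.05, as did 10.5% of all genes, and the median log2 fold change of all genes was 0.00. No gene of the 7 had groups that did not overlap, against 1.04% of all genes.

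Gzmb averaged 26.9 ± 6.90 normalized counts with anti-IL-38 and 10.9 ± 12.4 with IgG (SD, n = 6 and 5). Its log2 fold change was 2.06 (SE 0.71, 95% confidence interval 0.52 to 3.59, limma adjusted p = 0.420), and the exact permutation test gave a two-sided p of 0.0195, unadjusted. IgG replicate 3 was above 5 of the 6 treated libraries. edgeR on the reads gave 1.30 for Gzmb (adjusted p = 0.526), and without IgG replicate 5 the limma value was 1.38 (adjusted p = 0.571).

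Klrk1 averaged 27.4 ± 20.2 and 11.1 ± 3.51 normalized counts. Its log2 fold change was 1.02 (SE 0.45, interval 0.05 to 1.98, limma adjusted p = 0.461, exact permutation p = 0.0433, unadjusted), and it was 0.72 without anti-IL-38 replicate 5. Cd8b1 averaged 11.4 ± 6.10 and 3.12 ± 3.66 normalized counts, a log2 fold change of 1.73 (interval -0.14 to 3.60, adjusted p = 0.488, exact permutation p = 0.102). Gzma had a log2 fold change of 1.40 (interval -0.35 to 3.15), Eomes of 0.56 (interval -1.20 to 2.33), Nkg7 of 0.50 (interval -0.58 to 1.59) and Cd8a of 0.40 (interval -1.38 to 2.17).

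Much of this rested on IgG replicate 5, which had 0 reads of Cd8a, Cd8b1, Gzma and Gzmb. Without it, the median log2 fold change of the 7 genes was 0.42, Cd8a turned to -0.37, Gzma was 0.42 and Nkg7 0.06, while Cd8b1 was 1.36 and Klrk1 0.91. The αβ T-cell markers moved the same way (11 of 16 tested higher, median log2 fold change 0.73). Their summed levels were 30.7 to 67.8 CPM in IgG and 42.5 to 87.1 CPM with anti-IL-38. The 1 with an unadjusted limma p under 0.05 was Thy1 (0.83), which is also among the fibroblast markers counted here. The epithelial tumor-cell markers were higher too (10 of 10, median 0.66, summed levels 1682 to 3375 CPM in IgG against 2413 to 4200 CPM), as were the fibroblast markers (10 of 10, median 0.55, 1238 to 4156 CPM against 1521 to 4651 CPM). The neutrophil markers were lower in 8 of 8 genes (median -0.36, 428 to 653 CPM in IgG against 272 to 452 CPM). Their part in the result was not tested. Without IgG replicate 5, the medians were 0.29 for αβ T-cell, 0.52 for epithelial, 0.33 for fibroblast and -0.38 for neutrophil markers. Of the γδ T-cell markers 3 of 4 tested were higher (median 0.18, and -0.38 without IgG replicate 5), and Trdc, the constant region of the δ chain, was at 0 in anti-IL-38 replicate 1 and IgG replicate 5.

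**Figure D3:**
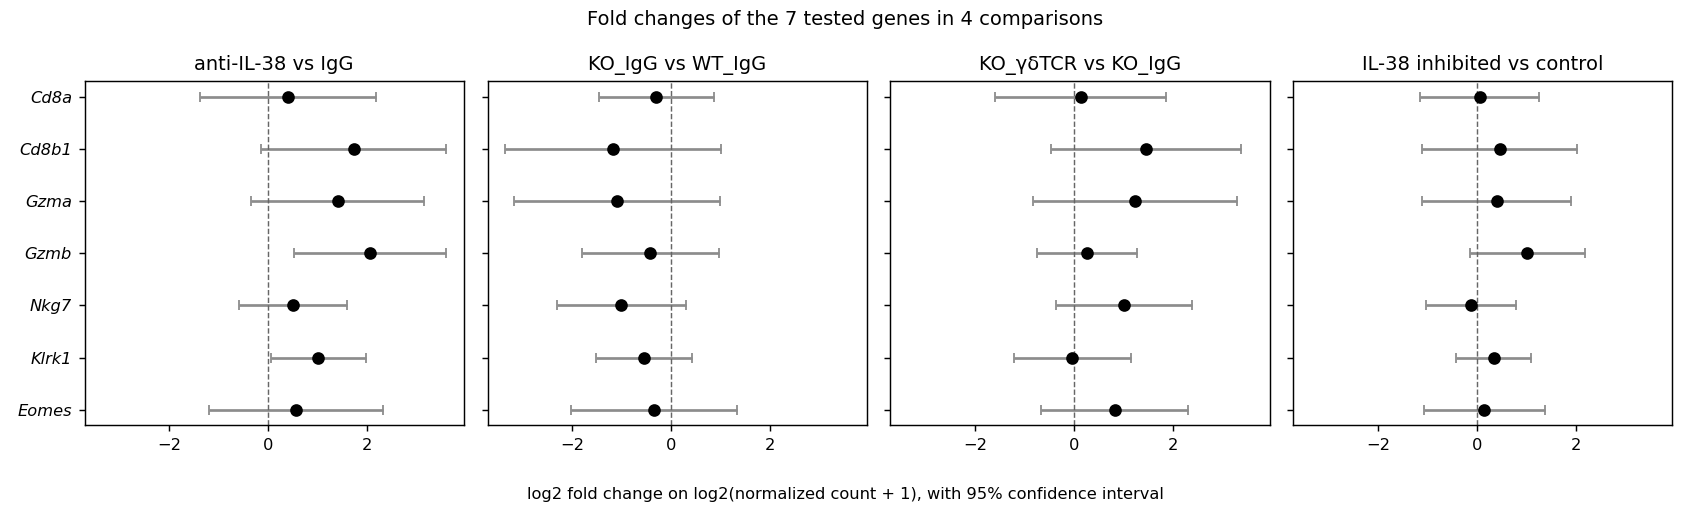
log2 fold change (x axis, on log2(normalized count + 1)) of the 7 tested genes (y axis) in the 4 comparisons, as points with 95% confidence intervals from limma. The intervals of Gzmb and Klrk1 under anti-IL-38 lie above 0 (0.52 to 3.59 and 0.05 to 1.98), and all other intervals include 0.

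The second comparison asked the same of the IL-38 knockout. All 7 tested genes were lower in KO_IgG than in WT_IgG, where 50.6% of all genes were higher, with a median log2 fold change of -0.54 (range -1.18 to -0.30), against 0.01 for all 16563 genes tested. None passed the adjusted threshold, as did 0.00604% of all genes, and 0 of 7 had an unadjusted p under 0.05 against 12.1% of all genes. None had groups that did not overlap, against 7.06% of all genes. With 4 libraries a group the exact permutation test cannot give less than 0.0286, and its smallest p among the 10 genes was 0.200, for Nkg7.

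Nkg7 averaged 20.4 ± 19.4 normalized counts in KO_IgG and 32.4 ± 13.5 in WT_IgG (SD, n = 4 each). Its log2 fold change was -1.01 (SE 0.60, interval -2.31 to 0.30, limma adjusted p = 0.501), with KO_IgG replicates 1, 2 and 3 under all WT_IgG libraries (replicate 3 at 19.63 against 19.79 in the lowest of WT_IgG) and replicate 4 near the highest. Cd8b1 was at -1.18 (interval -3.36 to 1.00), Gzma at -1.10 (-3.17 to 0.98), Klrk1 at -0.54 (-1.51 to 0.43), Gzmb at -0.42 (-1.81 to 0.96), Eomes at -0.34 (-2.03 to 1.34) and Cd8a at -0.30 (-1.46 to 0.86). Without KO_IgG replicate 4, Nkg7 was at -1.55 (adjusted p = 0.202), Cd8b1 at -1.80 and Cd8a at -0.64, whereas Gzma, with 0 reads in that library, was at -0.10. In that fit 1 of 7 genes had an unadjusted p under 0.05, as did 2265 of the 16225 genes tested, and 0 passed the adjusted threshold against 0.0431%. Without WT_IgG replicate 4, Cd8a turned to 0.14 and Eomes to 0.13.

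Markers of αβ T cells were also lower in the knockout (13 of 18, median log2 fold change -0.51), and Cd3e was at -1.59 (interval -3.04 to -0.15, adjusted p = 0.369). Their summed level was 62.5 to 87.0 CPM in KO_IgG and 53.6 to 125 CPM in WT_IgG. The macrophage markers were lower in 10 of 10 genes (median -0.48, 897 to 2230 CPM against 2060 to 2682 CPM). Without KO_IgG replicate 4 the medians were -0.59 for αβ T-cell and -0.26 for macrophage markers, and Cd3e was at -1.50. Their part in the result was not tested.

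The antibody and the knockout gave fold changes of opposite sign for all 7 genes, and the difference was tested as an interaction over the 19 libraries of both experiments. It was 2.48 for Gzmb (interval 0.33 to 4.63, limma adjusted p = 0.595), 1.56 for Klrk1 (interval 0.20 to 2.92, adjusted p = 0.597) and 2.91 for Cd8b1 (interval -0.0022 to 5.82, adjusted p = 0.650). For Gzma it was 2.50, for Nkg7 1.51, for Eomes 0.91 and for Cd8a 0.70, all with intervals that include 0. No gene of the 7 passed the adjusted threshold, as did 0.00612% of all genes, and 2 of 7 had an unadjusted p under 0.05 against 7.67%. Without IgG replicate 5, the value of Cd8a turned to -0.07. Without single libraries, from 0 of 7 (without WT_IgG replicate 3) to 4 of 7 genes (without KO_IgG replicate 4, IgG replicate 2, anti-IL-38 replicate 6 or WT_IgG replicate 2) had an unadjusted p under 0.05, and it was 1 of 7 without WT_IgG replicate 1 or KO_IgG replicate 2. The experiments also differed in dose, isotype and start of treatment, which cannot be told apart from the way IL-38 was inhibited.

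With both ways of inhibition pooled, anti-IL-38 and KO_IgG (n = 10) were set against IgG and WT_IgG (n = 9), which uses the libraries of the former comparisons again. Of the 7 genes, 6 were higher, as were 50.6% of all genes, and Nkg7 was lower, with a median log2 fold change of 0.34 (range -0.11 to 1.02) against 0.00 for all genes. None passed the adjusted threshold (0.0% of the 16352 genes tested did), and 0 of 7 had an unadjusted p under 0.05, against 10.5% of all genes. Gzmb came nearest, at 19.8 ± 10.7 against 12.8 ± 10.8 normalized counts, with a log2 fold change of 1.02 (SE 0.56, interval -0.14 to 2.18, adjusted p = 0.513, exact permutation p = 0.104). The other 6 ranged from -0.11 for Nkg7 to 0.46 for Cd8b1. Without IgG replicate 5 the median was -0.04, with 3 genes higher and 4 lower. Without KO_IgG replicate 4 it was 0.28, with 4 higher and 3 lower.

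The fourth comparison asked whether the γδ TCR antibody altered these genes in tumors that lack IL-38. The KO_IgG libraries are those of the genotype comparison, here as normalized in the table that also holds KO_γδTCR. Of the 7 genes, 6 were higher in KO_γδTCR, as were 51.9% of all genes, and Klrk1 was at -0.04, with a median log2 fold change of 0.82 against 0.02 for all 16481 genes. With quantile normalization 4 were higher and 3 lower (Cd8a -0.22, Gzmb -0.02 and Klrk1 -0.36), and the median was 0.20. None passed the adjusted threshold (0.0% of all genes did) and 0 of 7 had an unadjusted p under 0.05, against 21.7% of all genes. None had groups that did not overlap, against 9.54% of all genes.

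Cd8b1 averaged 15.2 ± 4.15 normalized counts in KO_γδTCR and 8.88 ± 8.96 in KO_IgG (SD, n = 4 each), a log2 fold change of 1.45 (SE 0.87, interval -0.47 to 3.38, limma adjusted p = 0.369, exact permutation p = 0.314). Nkg7 averaged 25.0 ± 8.81 and 15.8 ± 15.3, a log2 fold change of 1.01 (interval -0.36 to 2.38, adjusted p = 0.383). Gzma was at 1.23 (interval -0.83 to 3.29), Eomes at 0.82 (-0.66 to 2.31), Gzmb at 0.27 (-0.74 to 1.28) and Cd8a at 0.13 (-1.59 to 1.85). KO_γδTCR replicate 3, the shallowest library, had 1 read of Cd8a, against 22, 27 and 20 in replicates 1, 2 and 4. With single libraries left out, Cd8a ranged from -0.21 to 0.96. Without KO_γδTCR replicate 3, all 7 genes were higher (median 0.97, limma adjusted p of at least 0.303), and Klrk1 was at 0.35. KO_IgG replicates 1 and 2 were the low libraries for Cd8b1, Nkg7 and Eomes, and replicate 4 was within or above the KO_γδTCR range for Cd8a, Nkg7 and Eomes.

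Without KO_IgG replicate 4, all 7 genes were higher and 0 passed the adjusted threshold, while 2357 genes, 14.3% of those tested, did. Nkg7 was at 1.56 (limma adjusted p = 0.0629, edgeR 0.104, DESeq2 0.0560) and Cd8b1 at 2.05 (limma adjusted p = 0.123), and these 2 of 7 had an unadjusted p under 0.05 in limma, against 26.2% of all genes. Gzma was at 0.32 in that fit, Cd8a at 0.48 and Eomes at 1.27. Markers of other cells moved along with the blockade. The neutrophil markers summed to 16.9 to 42.8 CPM in KO_γδTCR, to 46.9 CPM in KO_IgG replicate 4 and to 239 to 321 CPM in the other KO_IgG libraries. The macrophage markers summed to 698 to 1121 CPM, 897 CPM and 1660 to 2230 CPM, in the same order. The part of these markers, of the pseudogene reads and of the lower depth in the result was not tested. The antibody cannot be told apart from what sets the 4 KO_γδTCR libraries apart.

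Genes that act with the 10 were counted from lists, with the share of all genes at an unadjusted p under 0.05 (10.5% with anti-IL-38, 12.1% in the knockout and 21.7% under blockade) as background. With all libraries, 0 genes of the lists described passed the adjusted threshold in these comparisons. Of 16 tested genes of granule proteins and exocytosis, 13 were higher with anti-IL-38 (median log2 fold change 0.27), and 10 of 16 without IgG replicate 5 (median 0.07). Ctsw, a cathepsin of cytotoxic lymphocytes, averaged 76.7 against 36.2 normalized counts (log2 fold change 1.17, limma adjusted p = 0.408), and Ctsc, the protease that activates granzymes, was at 0.40 (adjusted p = 0.470). Without IgG replicate 5 they were at 0.84 and 0.27.

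In the knockout 6 of 14 granule genes were higher (median -0.10), and 5 of 13 without KO_IgG replicate 4 (median -0.02). Under γδ TCR blockade 6 of 15 were higher (median -0.12), and 5 of 14 without KO_IgG replicate 4 (median -0.19). In that fit, where 14.3% of all genes passed the adjusted threshold, 4 of 14 did. Vamp8, a SNARE of granule fusion, rose by 0.75. Srgn, the granule proteoglycan serglycin, fell by 0.84, Lamp1 by 0.74 and Rab27a, a GTPase of granule docking, by 0.70. For these 4, the limma adjusted p was 0.00297 to 0.0482. The whole list summed to 1523 to 2383 CPM in KO_IgG and 1327 to 1542 CPM in KO_γδTCR. The 10 genes summed to only 5.40 to 13.1 and 7.65 to 13.4 CPM, and which cells gave the granule reads was not tested. In the pooled comparison 12 of 17 were higher (median 0.31).

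Of the NK and lectin-like receptors, 10 of 18 tested were higher with anti-IL-38 (median log2 fold change 0.06), and 8 of 18 without IgG replicate 5 (median -0.12). In 3 of 18 the unadjusted p was under 0.05. Klrd1, the CD94 subunit that pairs with NKG2 receptors, was at 2.20 (17.8 against 6.69 normalized counts, limma adjusted p = 0.432). Hcst, the adaptor through which NKG2D signals, was at 0.46 (adjusted p = 0.455), and Fcgr3, the low-affinity Fc receptor of NK cells and myeloid cells, was at -0.35 (adjusted p = 0.432).

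In the knockout 16 of 19 of these receptors were lower (median -0.83), 6 with an unadjusted p under 0.05. The summed level of the list was 563 to 770 CPM in KO_IgG replicates 1 to 3, 136 CPM in replicate 4 and 639 to 1059 CPM in WT_IgG. Klrg1, an inhibitory receptor of mature effector cells, was at -1.84 (2.78 against 13.5 normalized counts), Cd96, a receptor of T and NK cells, at -1.59, and Hcst at -1.18 (adjusted p = 0.320). Leaving out KO_IgG replicate 4, 18 of 20 were lower (median -0.46), 4 with an unadjusted p under 0.05, and Klrg1 was at -1.66, Cd96 at -1.19 and Hcst at -0.72.

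Under blockade 8 of 15 receptors were higher (median 0.01), while the summed level was 84.2 to 137 CPM in KO_γδTCR. The abundant Tyrobp, an adaptor of NK and myeloid cells, was at -2.39 and Fcgr3 at -1.99 (limma adjusted p = 0.0657 each). In the fit without KO_IgG replicate 4, 14.3% of all genes passed the adjusted threshold. There, 11 of 16 receptors were higher (median 0.11) and 5 of 16 passed. Crtam, a receptor of activated cytotoxic cells, rose by 2.46, and Tyrobp fell by 2.96, Slamf7 by 2.58, Fcgr3 by 2.51 and Klrb1a by 1.88. Macrophages and neutrophils also express Tyrobp and Fcgr3. The summed macrophage markers were at 698 to 1121 CPM in KO_γδTCR, 897 CPM in KO_IgG replicate 4 and 1660 to 2230 CPM in KO_IgG replicates 1 to 3, and their part in the result was not tested. Of the 5 ligands of NKG2D, 2 could be tested with anti-IL-38, 3 in the knockout and 1 under blockade, and the knockout held H60b at 2.03 and Raet1e at -1.28 (1.96 and -1.30 without KO_IgG replicate 4).

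IFN-γ targets were measured with more reads than Ifng itself. With anti-IL-38, 22 of 23 tested genes of the IFN-γ receptor and its targets were higher (median log2 fold change 0.25), 2 of them with an unadjusted p under 0.05, a share near the 10.5% of all genes. These were Ido1, which degrades tryptophan, at 2.78 (62.6 against 6.63 normalized counts, 0 to 276 reads), and Socs1, a feedback inhibitor, at 1.21. Without IgG replicate 5, 16 of 23 were higher (median 0.16).

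In the knockout 21 of 24 were lower (median -0.30), 8 with an unadjusted p under 0.05 against 12.1% of all genes. Among them were the guanylate-binding protein genes Gbp3 at -0.81, Gbp2 at -0.67 and Gbp7 at -0.68 (limma adjusted p = 0.156, 0.210 and 0.213). When KO_IgG replicate 4 was left out, 21 of 24 were lower (median -0.32), and Gbp3 was at -0.77 (adjusted p = 0.0923). Under blockade 18 of 23 were higher (median 0.34), with the transcription factor gene Irf1 at 0.70 (adjusted p = 0.0657) and the chemokine gene Cxcl9 at 0.79 (adjusted p = 0.0936). In the fit without KO_IgG replicate 4, 5 of 23 passed the adjusted threshold, against 14.3% of all genes. There Irf1 rose by 0.85, Cxcl9 by 0.99 and Jak2 by 0.83. Ifngr2, a chain of the IFN-γ receptor, fell by 0.74 and Irf8 by 1.41.

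**Figure D4:**
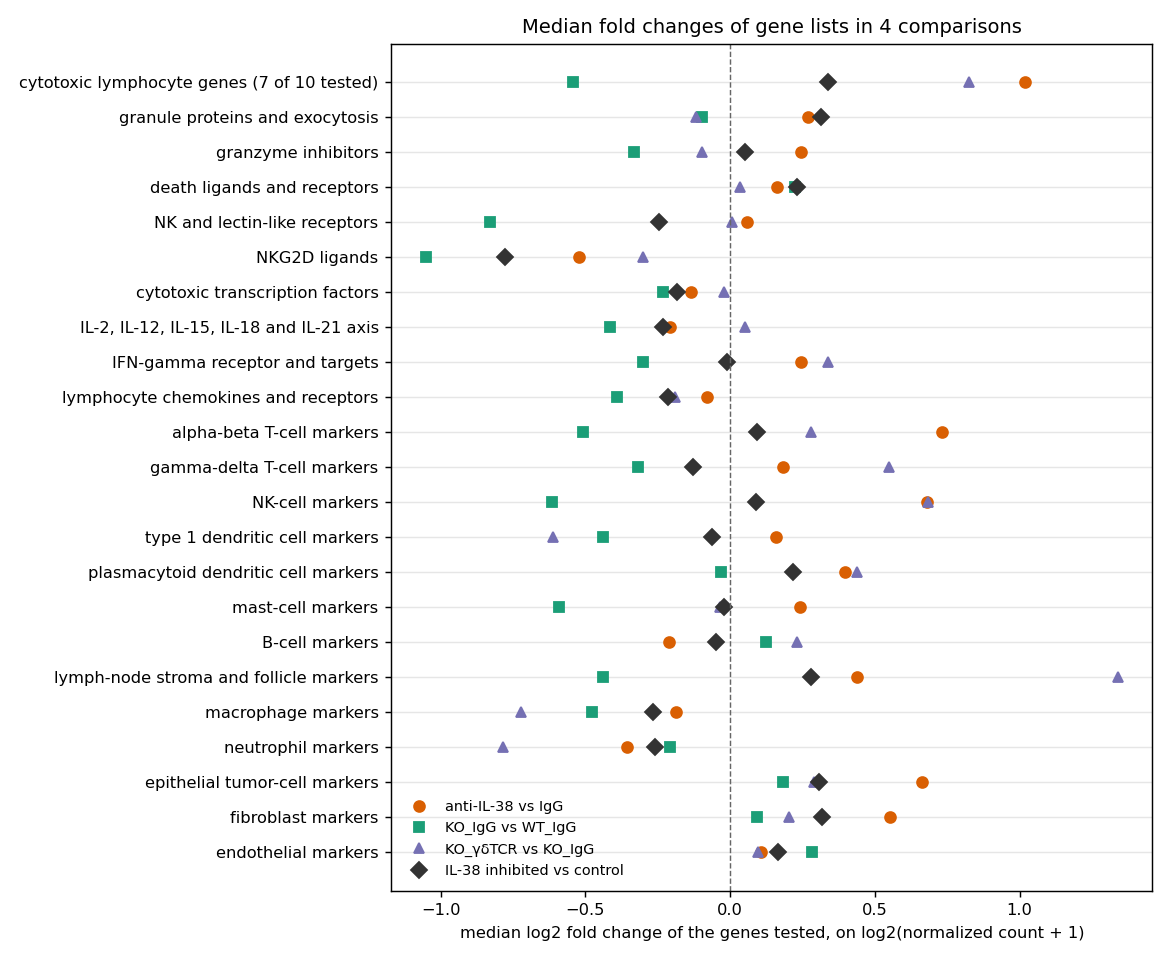
Median log2 fold change (x axis) of the tested genes of each list (y axis) in the 4 comparisons, which share libraries. The 10 cytotoxic lymphocyte genes had medians of 1.02 with anti-IL-38, -0.54 in the knockout, 0.82 under γδ TCR blockade and 0.34 pooled, with all libraries included.

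Inhibitors and chemokines of cytotoxic cells were counted too. Of 5 serpin genes listed as granzyme inhibitors, 3 were higher with anti-IL-38 (median log2 fold change 0.25, and 2 of 5 with -0.03 without IgG replicate 5). Whether each of them inhibits a granzyme was not tested. The 2 with an unadjusted p under 0.05 were lower, Serpinb9b at -0.57 and Serpinb6a at -0.26 (limma adjusted p = 0.432 and 0.439), and the summed level was 165 to 244 CPM (mean 199, n = 6) against 210 to 271 CPM in IgG (mean 234, n = 5). Serpinb6a averaged 2045 normalized counts with anti-IL-38 and 2445 with IgG, against 108 and 157 for Serpinb9b. In the knockout 4 of 5 serpin genes were lower (median -0.33), and 5 of 5 without KO_IgG replicate 4.

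Under blockade, Serpinb9b had 1.15 ± 1.56 normalized counts in KO_γδTCR and 47.2 ± 31.7 in KO_IgG (SD, n = 4 each, limma adjusted p = 0.0657). The KO_γδTCR libraries lay between 0 and 3.30, and KO_IgG libraries between 4.42, in replicate 4, and 77.3. Groups did not overlap for 9.54% of all genes in that comparison. Without KO_IgG replicate 4, Serpinb9b and Serpinb6a, 2 of 5 tested, passed the adjusted threshold, against 14.3% of all genes. Both were lower in KO_γδTCR. Ccl5, a chemokine that cytotoxic cells secrete, was at 118 ± 23.5 in KO_IgG and 213 ± 48.5 in WT_IgG. These 2 groups did not overlap for Ccl5, as was true of 7.06% of all genes. The log2 fold change of Ccl5 was -0.84 (limma adjusted p = 0.210), and -0.95 without KO_IgG replicate 4 (limma adjusted p = 0.108). Among the death ligands and receptors, 6 of 6 tested were higher in the knockout (median 0.22, and 0.21 without KO_IgG replicate 4), with 0 of 6 at an unadjusted p under 0.05 (1 of 6 without that library).

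Of 11 tested transcription factors of cytotoxic cells, 3 were higher with anti-IL-38 (median log2 fold change -0.14), 3 in the knockout (median -0.23) and 5 under blockade (median -0.02). The lowest unadjusted p in the knockout belonged to Batf, an activation factor of T cells, at -0.98 (18.9 against 40.0 normalized counts), and Runx3, which directs the CD8 lineage, was at -0.42. Without KO_IgG replicate 4 they were at -1.03 and -0.26. Under blockade Zeb2, a factor of terminal effector cells, then passed the adjusted threshold (0.72, limma adjusted p = 0.0269). It was 1 of 11 factors tested, against 14.3% of all genes. Of the 11 factors, 1 was then higher in the knockout (median -0.26) and 7 under blockade (median 0.32).

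Of the axis of IL-2, IL-12, IL-15, IL-18 and IL-21, 5 of 13 were higher with anti-IL-38 (median log2 fold change -0.21), 4 of 14 in the knockout (median -0.42) and 8 of 13 under blockade (median 0.05). Il2rb, the receptor chain shared by IL-2 and IL-15, was at -0.82 in the knockout (45.1 against 79.6 normalized counts, limma adjusted p = 0.357), and at -0.96 without KO_IgG replicate 4. Under blockade, Il12b, a subunit of IL-12, was at 3.07 (adjusted p = 0.0657), Il18r1, the IL-18 receptor, at 1.91 (adjusted p = 0.0722), and Il2rg, the common chain of the IL-2, IL-15 and IL-21 receptors, at -1.76 (adjusted p = 0.0657). These 3 passed the adjusted threshold, at 3.98, 2.03 and -2.11, once KO_IgG replicate 4 was left out, as did Il21r at -1.31. That was 4 of 14 genes tested, against 14.3% of all genes. Without that library, 4 of 14 genes of the axis were higher in the knockout (median -0.43) and 9 of 14 under blockade (median 0.08).

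Xcl1, a chemokine that CD8+ T cells and NK cells secrete, was measured beside the 10 genes. It was at 16.1, 3.68, 16.9, 9.21 and 2.86 normalized counts in IgG and between 15.9 and 78.3 with anti-IL-38, a log2 fold change of 1.87 (interval 0.78 to 2.95, limma adjusted p = 0.376, exact permutation p = 0.00866). In the knockout it was at 25.3, 18.9, 46.1 and 22.6 against 16.9, 12.3, 11.6 and 12.2 normalized counts. These did not overlap, as was true of 7.06% of all genes. The log2 fold change was 0.97 (limma adjusted p = 0.351, exact permutation p = 0.0286, the smallest possible). Without KO_IgG replicate 4 this fold change was 1.04. Unlike the 7 genes, Xcl1 was higher in both, although the interaction test did not separate it from 0 (0.90, interval -0.50 to 2.30). Under blockade it was at -0.75 (interval -1.92 to 0.42).

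Among themselves, the 10 genes fell into loosely related pairs. Over 23 libraries, which share their depth with both genes of a pair, Gzma and Gzmb had a Pearson's r of 0.70 (0.63 after removing group means), Cd8a and Cd8b1 0.61 (0.54), Cd8b1 and Eomes 0.61 (0.54), and Cd8b1 and Nkg7 0.55 (0.68). By contrast, the granzymes and the CD8 chains were nearly unrelated, with r from -0.18 for Gzma with either chain to 0.18 for Gzmb with Cd8b1 (-0.25 to 0.15 after removing group means). The αβ T-cell markers had r of 0.73 with Cd8a and 0.62 with Cd8b1. The NK-cell markers, which include Gzma, Eomes and Ncr1, had 0.63 with Gzmb. For Gzma, which was then left out of that list, r was -0.009. Cd8b1 had its highest r, 0.81, with the markers of lymph-node stroma and follicles, whose summed level was 0.372 to 8.77 CPM over all libraries. No gene of the 10 had an r beyond 0.40 in size with the total reads of the library.

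**Figure D5:**
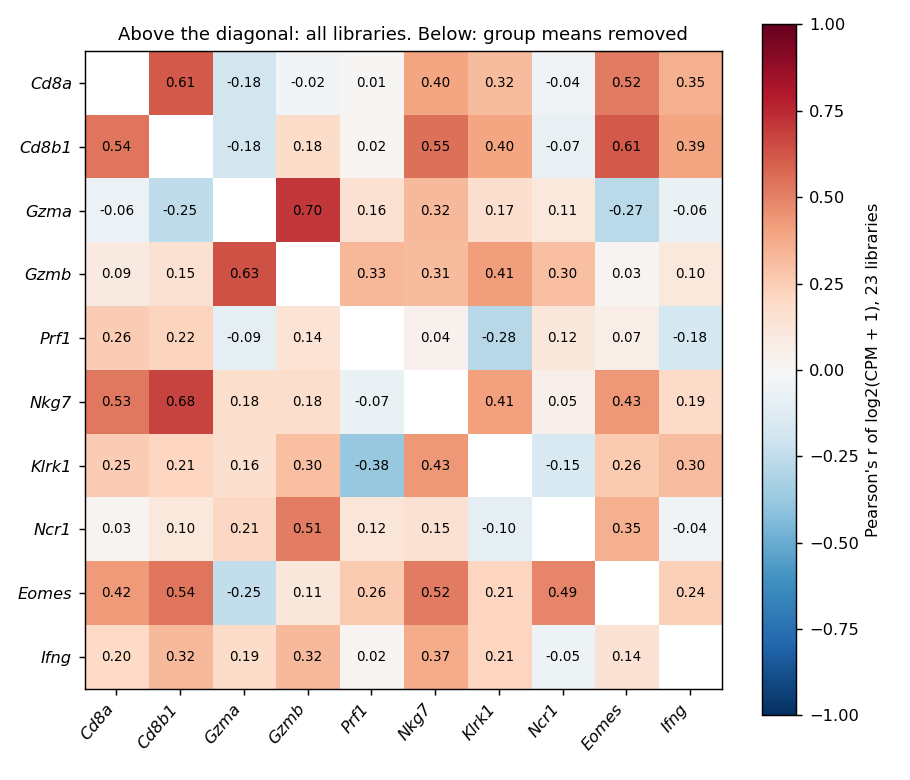
Pearson's r of log2(CPM + 1) between the 10 genes over 23 libraries, above the diagonal for all libraries and below it with group means removed. Gzma with Gzmb (0.70) and Cd8a with Cd8b1 (0.61) are the highest in their rows, and the CD8 chains with the granzymes lie between -0.18 and 0.18 above the diagonal and between -0.25 and 0.15 below it.

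Among 14723 genes with a mean of at least 1 CPM, the pattern of Nkg7 was most like those of Cd3d (r = 0.82), H2-Eb1 (0.80), which encodes an MHC class II chain, and Osbpl5 (0.79), over 23 libraries. Cd8a was most like Gm10115 (0.84), Gm38071 (0.78) and Tnni3 (0.77), and Gzmb most like Ndufa1 (0.77), Gm13205 (0.77) and 1600014C10Rik (0.77). With so many genes and few reads of each gene compared, these are descriptions of these libraries.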

How the data were processed

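RNA of PyMT tumors was sequenced from QuantSeq FWD 3′ libraries. The authors used the QuantSeq pipeline of BlueBee Genomics, and the submitters' notes list STAR, HTSeq and DESeq2 without versions and GRCm39. The deposited values are signal, read counts that the authors divided by 1 size factor per library, in a table of 19 libraries and one of 8, normalized separately; the 4 KO_IgG libraries are in both. Values were multiples of that of 1 read within 0.0001%, which gave back the reads, although in WT_IgG replicate 1 this value lay too near 1 to tell reads from rounded values. Libraries held 6273049 to 15879164 reads. Intervals cover counting error only where they come from reads, since without molecular identifiers a read is not always a separate molecule. Symbols came from GENCODE M21 for 47224 of 47643 identifiers.

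The minimum for a test was a mean of 5 normalized counts. A pseudocount of 1 was added, and log2 values entered limma 3.58.1 (R 4.3.3; trended eBayes; two-sided; Benjamini-Hochberg over all genes tested; threshold 0.05), with the libraries of each comparison alone; adjusted p-values are from limma unless another tool is named. For genes with few reads, fold changes on this scale can lie above or below those from the reads. The median of the 7 genes was 1.02 in limma and 0.72 in edgeR with anti-IL-38, and -0.54 and -0.68 in the knockout. It was 0.82 and 0.58 under blockade, and 0.34 and 0.20 pooled. Single genes were compared with two-sided exact permutation tests (scipy 1.17.1), 40 for the 10 genes, unadjusted. Alternatives were pseudocounts of 0.5 and 5, no filter or a mean of at least 20, TMM, quantile normalization, edgeR 4.0.16, DESeq2 1.42.0, a term for the experiment, a block for the replicate number, and each library left out in turn; edgeR and DESeq2 without KO_IgG replicate 4, and the lists without it or IgG replicate 5, were added after seeing the data, and list genes that then passed the threshold were named after their values were seen. The fits were tested on simulated counts, with large changes in genes that had more reads than most of the 10. That test does not show what could be detected in genes with few reads. The chi-square per degree of freedom between libraries of a group was 15.9 or more, so none was a duplicate. The labels do not say whether libraries of a group came from separate mice, so p-values measure the spread between these libraries. No columns of per-library values were left out.

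The 10 genes and the lists were chosen with earlier results of these data known. Named besides the 10 were list genes past the threshold or, up to 3 per list and comparison, with the smallest p under 0.05, T-cell genes (CD3 genes, Ptprc, Cd4, Trdc, Xcl1), and for Cd8a, Nkg7 and Gzmb the 3 genes with the highest r.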

Additional observations from a re-analysis of the deposited data

Results flagged for a closer look

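Dixon's test compares the gap of the highest or lowest library to its nearest neighbour with the range of its group. It marked 7 of 50 groups (10 genes in 5 groups), where chance flags about 1 in 20 groups, and groups that hold mostly 0 reads pass it with a single read. Cd8b1 in anti-IL-38 replicate 6 was at 0 CPM (0 reads), against 0.750 CPM (9 reads) in the next library. Ncr1 in IgG replicate 3 was at 1.50 CPM (22 reads), against 0.299 CPM (4 reads) in the next. Prf1 was highest in IgG replicate 3 at 0.273 CPM (4 reads) and in KO_IgG replicate 3 at 0.0630 CPM (1 read). Ifng was highest in IgG replicate 1 at 0.0777 CPM (1 read), in anti-IL-38 replicate 4 at 0.0903 CPM (1 read) and in KO_γδTCR replicate 4 at 0.227 CPM (2 reads), with all other libraries of those groups at 0 reads.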

How the results depend on the processing

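None of the 10 genes passed the adjusted threshold under any alternative run. Of 730 values of single genes under these, 730 stayed on the same side of the threshold and 39 had another sign. The number of all genes called moved more. With anti-IL-38 it was 0 in limma, 75 in DESeq2 and 0 to 6 without single libraries. In the knockout it was 1 in limma, 0 in edgeR, 298 in DESeq2 and 0 to 7 without single libraries. Under γδ TCR blockade it was 0 in limma, 1024 in DESeq2, 0 to 2357 without single libraries, and without KO_IgG replicate 4 2379 in edgeR and 2875 in DESeq2. Pooled, it was 0 in limma, 1 in edgeR, 70 in DESeq2, 1 with the experiment as a term and 0 to 23 without single libraries. For the interaction it was 1 in limma and 0 to 2 without single libraries. Under blockade, the list genes past the threshold in limma were 0 with all libraries. Without KO_IgG replicate 4 they were 4 of 14 granule, 5 of 16 NK-receptor and 5 of 23 IFN-γ genes, against 14.3% of all genes. The cause was not tested. With the replicate number as a block, 1 gene was called with anti-IL-38 and 0 in the knockout; replicate numbers did not pair the libraries (correlations of deviations -0.17 to 0.07), so the block has no basis in the design. Depth limits Prf1, Ncr1 and Ifng most, which had 0 reads in 17, 8 and 14 of 23 libraries.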
